A study of Mus musculus with 20 samples.

Results

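The BCL2 family of apoptosis regulators was followed in RNA sequencing libraries of monocyte-derived macrophages (MoMac) sorted from fibrotic mouse livers. Its 10 members described here are the genes with the symbols Bcl2, Bcl2l1, Mcl1, Bax, Bak1, Bid, Bad, Bcl2l11, Pmaip1 and Bbc3 among 59311 annotated genes, each with 1 row of values, and all 10 passed the filter on low values. All 10 mice were male C57BL/6 mice (C57BL/6J in the study's methods) aged 10 to 12 weeks that received CCl4, a liver toxin that causes fibrosis, at 0.6 ml/kg 2 times per week for 4 weeks. Mice 16 to 20 were given Ac-6-FP at 0.25 mg/kg, 2 hours before the last CCl4 injection and daily for 2 days, whereas mice 11 to 15 were given the vehicle, 1% DMSO in PBS. Ac-6-FP (acetyl-6-formylpterin) is a ligand of the antigen-presenting molecule MR1 that keeps mucosal-associated invariant T (MAIT) cells inactive. From each liver, Ly6Chi and Ly6Clo MoMac were sorted as CD11b+ F4/80+ cells negative for CD3, CD11c and Ly6G, which gave 20 libraries, 5 in each of 4 groups. The design asks whether the members differ between the subsets of a mouse, and whether they differ with Ac-6-FP in either subset.

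Cells keep or lose the integrity of the outer mitochondrial membrane through this family. The anti-apoptotic proteins BCL2, BCL-XL (Bcl2l1) and MCL1 hold the pore-forming effectors BAX and BAK (Bak1) in check, and the BH3-only proteins BID, BAD, BIM (Bcl2l11), NOXA (Pmaip1) and PUMA (Bbc3) bind the guards or activate the effectors. Once BAX or BAK opens the membrane, cytochrome c is released and caspases are activated. Monocytes and macrophages are known to rely on several of the guards, and inflamed liver holds short-lived recruited monocytes beside longer-lived macrophages.

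Values are normalized counts, gene counts divided by the size factor of the library and not by gene length, so that levels are compared between libraries and not between genes. Library depth lay between 5693049 and 18682437 reads on genes. A gene listed at 0 may still have had 3 reads by counting error, which correspond to between 1.87 and 6.26 normalized counts. The Ly6Clo vehicle library of mouse 13 stood apart, with the fewest reads and 5343 genes detected against 9017 to 15766 in the others. The labels were checked against markers of each subset, and the Ly6Chi monocyte markers Ly6c2, Ccr2, F13a1 and Chil3 were higher in Ly6Chi MoMac, while 2 of 5 Ly6Clo markers (Treml4 and Ace) were higher in Ly6Clo MoMac. The macrophage markers Adgre1, Itgam, Csf1r and Cd68 passed in neither direction. The Ly6Clo libraries also carried transcripts of other leukocytes. Of 7 tested T and NK cell markers, 5 were higher in Ly6Clo MoMac (Gzma, Nkg7, Ncr1, Klrb1c and Cd2), and their list summed to between 40761 and 88581 normalized counts there against 0 to 1204 in Ly6Chi MoMac. Its most abundant genes in Ly6Clo MoMac were Gzma (mean 24663) and Nkg7 (mean 21720), whereas the genes of the CD3 complex that the sort selected against were low. Means of Cd3d, Cd3e and Cd3g were 65.1, 3.77 and 86.8 in the Ly6Clo Ac-6-FP libraries and 0.50, 0 and 25.1 in the Ly6Clo vehicle libraries. They were 44.7, 0 and 14.5 in the Ly6Chi Ac-6-FP libraries and 0.35, 0 and 0 in the Ly6Chi vehicle libraries. Of 7 neutrophil markers, 4 (Retnlg, Cxcr2, Ngp and Camp) were higher in Ly6Clo MoMac (sum 10371 to 130009 against 3045 to 6851), as were Ccr7 and Flt3, 2 of 5 dendritic cell markers (sum 878 to 11356 against 0 to 330). Among 4 tested markers each, 1 of B cells (Cd79a), 1 of hepatocytes (Apoa1) and 1 of endothelial cells (Clec4g) was higher in Ly6Clo MoMac, and no marker of Kupffer or stellate cells passed in either direction. In such bulk samples, fewer cells of a type and less RNA per cell cannot be told apart.

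Between the subsets, Bcl2 and Bad were the members that moved the same way in every mouse, and the bases before their start sites are shown for this reason. The RefSeq table of promoters (GRCm38.p6, the mm10 assembly) held 9 of the 10 members with 15 start sites, and Pmaip1 was the member it lacked. Each line gives the 250 bases before a start site, read in the direction of transcription, with the GC box core GGGCGG or its reverse complement CCGCCC in capitals. The Bcl2 window is chr1:106714291-106714540 on the minus strand, and the Bad window is chr19:6941611-6941860 on the plus strand.

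Bcl2: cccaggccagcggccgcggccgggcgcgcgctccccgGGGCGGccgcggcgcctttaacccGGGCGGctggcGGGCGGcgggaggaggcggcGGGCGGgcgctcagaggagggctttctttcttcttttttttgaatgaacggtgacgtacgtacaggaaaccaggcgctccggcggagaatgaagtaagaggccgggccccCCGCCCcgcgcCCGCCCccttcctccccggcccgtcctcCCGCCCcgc

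Bad: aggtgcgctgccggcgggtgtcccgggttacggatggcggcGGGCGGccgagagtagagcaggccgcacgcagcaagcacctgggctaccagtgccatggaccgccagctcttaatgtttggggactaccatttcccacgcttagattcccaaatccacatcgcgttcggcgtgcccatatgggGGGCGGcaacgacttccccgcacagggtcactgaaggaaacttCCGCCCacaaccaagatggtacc

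The letters GGGCGG occurred 7 times before Bcl2 and 3 times before this start of Bad, counted over both strands. Before the other members in that table, the highest counts were 7 for Bbc3, 3 for Bid and Bcl2l11, 2 for Bax, 1 for Mcl1, and 0 for Bcl2l1 and Bak1. Across all 32851 promoters of the table, 32.7% held them at least once, and the median GC content was 52.4% against 74.8% for the Bcl2 window and 62.8% for the Bad window. Neither window held TATAAA or CCAAT, which 12.4% and 33.8% of all promoters held on either strand, nor the cyclic AMP element TGACGTCA (1.55%) or the nuclear receptor site AAAGGTCA (1.34%). The second Bad start, at chr19:6942312-6942561, had no GGGCGG and 1 CCAAT. These matches describe letters in a window and are no evidence of a bound factor.

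Ly6Chi and Ly6Clo MoMac of the same liver differed in 3 of the 10 members. Pmaip1 and Bcl2 were higher in Ly6Clo MoMac, and Bad was higher in Ly6Chi MoMac. Over all 17248 genes tested, 5.22% passed the same test (limma on within-mouse differences of log2(normalized count + 1), adjusted p under 0.05), 3.41% with higher values in Ly6Clo and 1.81% with higher values in Ly6Chi. The median difference over the members, Ly6Chi minus Ly6Clo, was 0.02 on the log2 scale, against -0.03 over all genes tested, and without mouse 13 these medians were -0.0022 and -0.18. The same 3 members passed without mouse 13, and the count fell to 1 (Pmaip1) with edgeR on the recovered reads of the mice other than mouse 15.

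**Figure D1:**
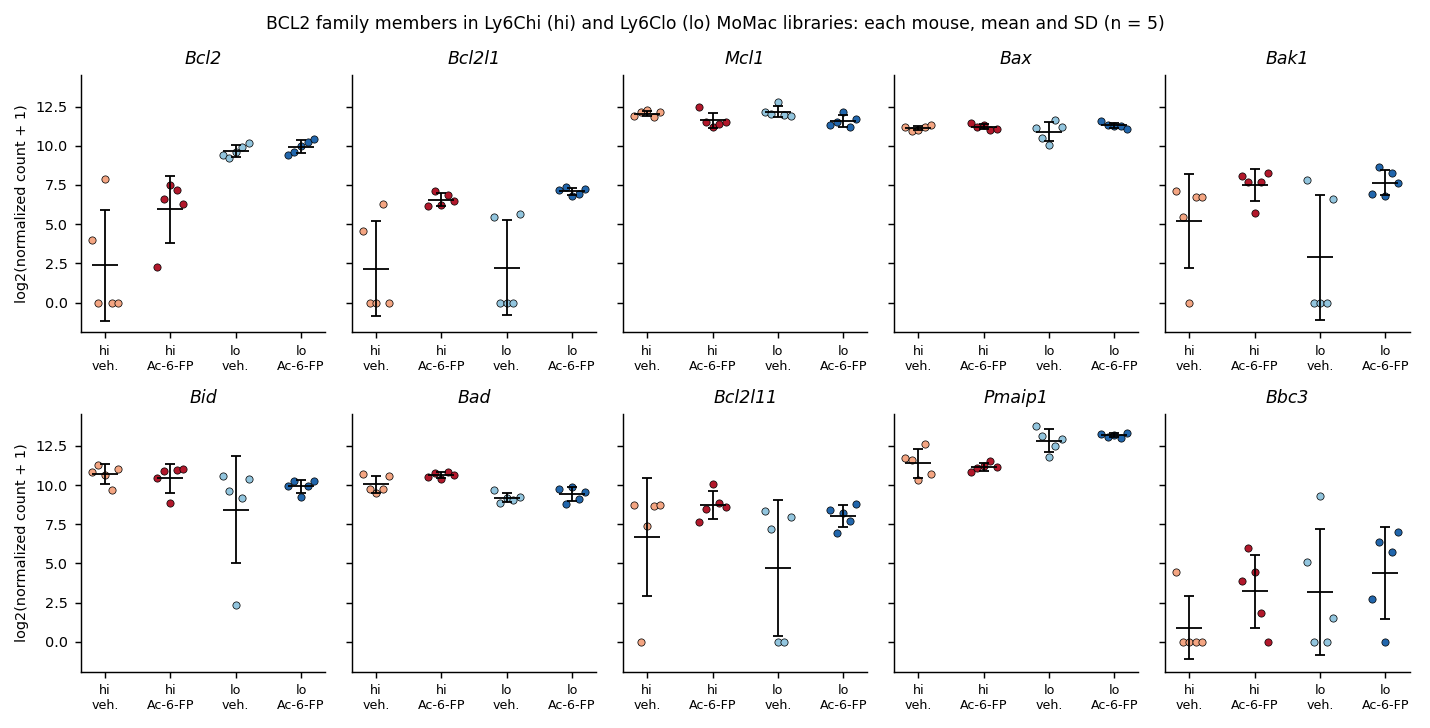
Each panel plots log2(normalized count + 1) of 1 member for the 5 mice of the 4 groups (hi, Ly6Chi; lo, Ly6Clo; veh., vehicle), with the mean as a bar and the SD as whiskers. Bcl2 lies between 608 and 1370.0 normalized counts in Ly6Clo libraries and at or below 236 in Ly6Chi libraries, and values at 0 lie mostly in the vehicle groups.

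Bcl2 encodes the anti-apoptotic protein after which the family is named. It lies at chr1:106538176-106714290 on the minus strand (mm10), and 558 exonic bases are shared with the antisense gene D630008O14Rik, whose reads cannot be told apart where strand was not used in counting, which the sources do not state. In Ly6Chi MoMac of vehicle mice 11 to 15, Bcl2 reached 15.1, 0, 236, 0 and 0 normalized counts. In Ly6Chi MoMac of Ac-6-FP mice 16 to 20 it reached 3.75, 95, 181, 141 and 76.8. In Ly6Clo MoMac the values were 677, 608, 762, 967 and 1161 in mice 11 to 15 and 689.7, 777, 1028, 1228 and 1370.0 in mice 16 to 20. Every Ly6Clo library thus exceeded every Ly6Chi library, as in 0.974% of all genes, and the lowest Ly6Clo value was above the highest Ly6Chi value by more than the SD of 87 among Ly6Chi libraries. The log2 difference, Ly6Chi minus Ly6Clo, was -5.64 (SE 0.85, n = 10 mice, adjusted p = 0.00171 by limma), with 10 of 10 mice in the same direction, as in 3.85% of all genes and, with Ly6Clo higher, in 1.98%. With a pseudocount of 1, the fold by which Ly6Clo exceeded Ly6Chi had a median of 29.9 and ranged from 3.21 to 1162, the largest folds being those of Ly6Chi libraries at 0. With edgeR and without mouse 15, the log2 difference was -5.38 with an adjusted p of 0.0641. The difference was -7.29 in vehicle mice (SE 1.20, adjusted p = 0.00658) and -3.99 in Ac-6-FP mice (SE 1.20, adjusted p = 0.128, both by limma), and the difference between these values did not pass its own test, given with the other comparisons of the subsets' changes.

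Between the subsets, the Bcl2 difference went along with the T and NK cell, neutrophil and dendritic cell markers. Over the 10 Ly6Clo libraries alone, Bcl2 had a Spearman correlation of 0.07 with the summed T and NK cell markers (permutation p = 0.862). The part of these cells in the difference between the subsets was not tested.

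**Figure D2:**
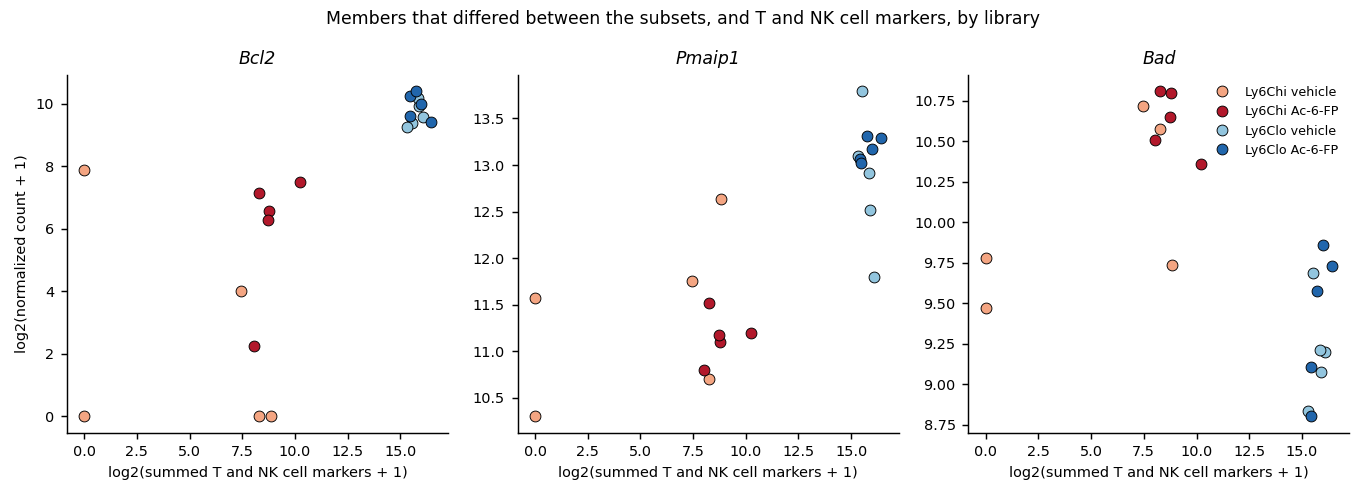
Each point is 1 of 20 libraries, with the summed normalized counts of 8 T and NK cell markers on the x axis and a member on the y axis, both as log2(value + 1). The Ly6Clo libraries form a group at marker sums of 40761 to 88581, with Bcl2 and Pmaip1 mostly above and Bad mostly below the Ly6Chi libraries, whose sums lie between 0 and 1204.

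Bcl2l1 encodes BCL-XL, a guard that binds both effectors and most BH3-only proteins. The gene is at chr2:152758732-152831728 on the minus strand. Its values were low, with a highest of 136 normalized counts in Ly6Chi and 162 in Ly6Clo libraries, and 3 libraries of each subset were at 0. The subsets did not differ beyond the spread between mice (log2 difference -0.29, SE 0.94, adjusted p = 0.893 by limma). Ly6Clo was higher in 7 mice, Ly6Chi in 1, and both libraries were at 0 in 2.

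Mcl1 encodes a short-lived guard protein that is the main partner of NOXA. It spans chr3:95658721-95663176 on the plus strand and was detected in every library. Over the 10 mice it ranged from 2399.7 to 5707 normalized counts in Ly6Chi MoMac (median 3723) and from 2384 to 6992 in Ly6Clo MoMac (median 3854). These ranges overlapped almost wholly, each subset was higher in 5 mice, and the log2 difference was -0.04 (SE 0.17, adjusted p = 0.928 by limma).

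The effector Bax (chr7:45461695-45466898, minus strand) forms pores in the outer mitochondrial membrane, and it shares 192 exonic bases with Gm45808 on the same strand. On the log2 scale it had the smallest SD of the members in Ly6Chi MoMac (0.16), with values from 1975 to 2849.6 normalized counts (mean 2325 ± 264, SD, n = 10), against 1079 to 3201 in Ly6Clo MoMac (2295 ± 636). The log2 difference was 0.07 (SE 0.14, adjusted p = 0.817), with each subset higher in 5 mice. Bak1 (chr17:27019810-27028627, minus strand), the other effector, ranged from 0 to 306 normalized counts in Ly6Chi and from 0 to 393 in Ly6Clo MoMac. Of its exonic bases, 614 are shared with Ggnbp1 on the opposite strand. Its log2 difference of 1.08 (SE 0.81, adjusted p = 0.523 by limma) came mostly from vehicle mice 12 and 14, whose Ly6Clo libraries were at 0.

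Among the BH3-only members, Pmaip1 had the smallest adjusted p between the subsets. It encodes NOXA, which binds MCL1 and promotes its degradation. In Ly6Chi MoMac it reached 3444, 3035, 1262, 6371 and 1671 normalized counts in vehicle mice 11 to 15, and 1787, 2189.6, 2347, 2936 and 2318 in Ac-6-FP mice 16 to 20. In Ly6Clo MoMac it reached 14231, 8779, 3563, 5854 and 7747 in mice 11 to 15, and 10006, 8558, 9225, 8296 and 10151 in mice 16 to 20. Ly6Clo was higher in 9 of 10 mice, with mouse 14 as the exception, and in the Ac-6-FP mice the subsets did not overlap, as in 4.4% of all genes with Ly6Clo higher. The log2 difference was -1.72 (SE 0.20, adjusted p = 0.000275 by limma), a median of 3.92-fold within mouse. It passed both in vehicle mice (-1.43, SE 0.28, adjusted p = 0.0196) and in Ac-6-FP mice (-2.01, SE 0.28, adjusted p = 0.00222), where 2.35% and 2.94% of all genes passed. As for Bcl2, markers of NK cells, neutrophils and dendritic cells moved with this difference between the subsets. Over the 10 Ly6Clo libraries alone, Pmaip1 had a Spearman correlation of -0.15 with the summed T and NK cell markers (permutation p = 0.682). Pearson's r was -0.30, and -0.64 without the 2 libraries whose marker sum lay farthest from the median. The part of these cells in the difference between the subsets was not tested.

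Bad encodes a BH3-only protein that neutralizes BCL2 and BCL-XL unless it is phosphorylated and held by 14-3-3 proteins. It lies at chr19:6941855-6951905 on the plus strand and shares 524 exonic bases with Gpr137 on the opposite strand. Ly6Chi MoMac held 1685, 876, 708, 852 and 1522 normalized counts in mice 11 to 15 and 1451, 1781, 1311, 1795 and 1607 in mice 16 to 20. Ly6Clo MoMac held 822, 455, 586, 539 and 592 in mice 11 to 15 and 849, 445, 929, 549 and 763 in mice 16 to 20. Each mouse had more Bad in its Ly6Chi library, as 1.87% of all genes had, although the ranges of the subsets overlapped between mice. The log2 difference was 1.03 (SE 0.22, adjusted p = 0.0159 by limma), a median of 1.99-fold. Taken alone, neither the vehicle mice (0.85, SE 0.31, adjusted p = 0.242) nor the Ac-6-FP mice (1.21, SE 0.31, adjusted p = 0.0647) passed the threshold, and with edgeR without mouse 15 the adjusted p was 0.0662. Between the subsets, Bad thus ran opposite to the leukocyte markers of the Ly6Clo libraries. Over the 10 Ly6Clo libraries alone, its Spearman correlation with the summed T and NK cell markers was 0.64. The permutation p was 0.054, and 0.162 when adjusted over Bcl2, Pmaip1 and Bad. Pearson's r was 0.57, and 0.29 without the 2 libraries whose marker sum lay farthest from the median. The part of these cells in the difference between the subsets was not tested.

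Bid is cleaved by caspase 8 after death receptor signals and then acts on the mitochondria. It lies at chr6:120891930-120916843 on the minus strand, with 628 exonic bases in common with Bcl2l13 on the opposite strand. Ly6Chi libraries held 1802, 2532, 1616, 832 and 2120.5 normalized counts in mice 11 to 15 and 1386, 1897, 454, 1997 and 2039 in mice 16 to 20. Ly6Clo libraries held 1559, 802, 4.17, 575 and 1357 in mice 11 to 15 and 968, 1215, 595, 983 and 1233 in mice 16 to 20. Ly6Chi was higher in 9 of 10 mice, with a median of 1.56-fold, and mouse 18 was the exception. The value of 4.17 in the Ly6Clo library of mouse 13 alone gave a log2 difference of 8.29, and the mean difference of 1.38 (SE 0.67) had an adjusted p of 0.320 by limma. Without mouse 13 the difference was 0.63, and the adjusted p remained above 0.05. A two-sided exact test over sign changes of the 10 differences, unadjusted, gave p = 0.00586. The difference of 1.44 passed once detected genes were a covariate (adjusted p = 0.0113 by limma), where 1688 of all 17248 genes passed.

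Bcl2l11 and Bbc3 did not pass between the subsets. Bcl2l11 (chr2:128126037-128162550, plus strand) encodes BIM, which rises in many cells when growth factors are withdrawn. It ranged from 0 to 1078 normalized counts in Ly6Chi and from 0 to 444 in Ly6Clo MoMac, and the log2 difference was 1.35 (SE 1.26, adjusted p = 0.621 by limma), which lay between 0.51 (without mouse 14) and 2.50 (without mouse 12) with each mouse left out. Bbc3 (chr7:16309583-16318334, plus strand), a target of p53 that encodes PUMA, was at 0 in 5 Ly6Chi and 3 Ly6Clo libraries. Its highest value was 630.3 normalized counts, in the Ly6Clo library of mouse 13, the next was 128, and its log2 difference was -1.72 (SE 1.23, adjusted p = 0.505 by limma). With each mouse left out it lay between -2.42 (without mouse 18) and -0.84 (without mouse 13).

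**Figure D3:**
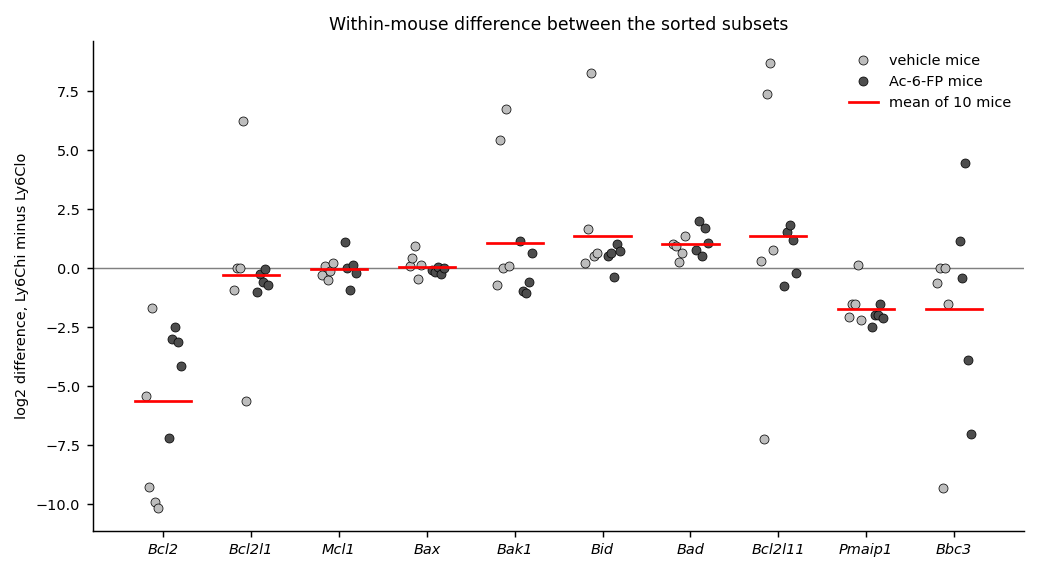
The within-mouse difference Ly6Chi minus Ly6Clo in log2(normalized count + 1) is plotted for the 10 members, with 1 point per mouse and the mean of 10 mice as a red line. All 10 points lie below 0 for Bcl2 and above 0 for Bad, 9 of 10 lie below 0 for Pmaip1, and those of Mcl1 and Bax scatter around 0.

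The ratio of Pmaip1 to Mcl1 describes the partners NOXA and MCL1 within a library, where the size factor has no effect. Because gene lengths were not divided out, the ratio is read only between libraries. It had a median of 0.779 in Ly6Chi (0.258 to 1.76) and 2.52 in Ly6Clo libraries (0.510 to 3.84). The log2 ratio was lower in Ly6Chi by a mean of 1.68 ± 1.00 (SD, n = 10 mice; Ly6Chi minus Ly6Clo -1.68), with a highest within-mouse value of 0.24. In contrast, the log2 ratio of the summed anti-apoptotic to the summed pro-apoptotic members differed between the subsets by 0.21 ± 0.65 (SD, n = 10 mice), a mean smaller than its spread, and lay between -0.59 and 1.69 in single mice. Without mouse 16 the mean was 0.046. Of the summed anti-apoptotic counts, a mean of 96.0% in Ly6Chi and 78.4% in Ly6Clo libraries were those of Mcl1. Those of Bcl2 were 2.23% and 19.8%, so that this sum of Bcl2, Bcl2l1 and Mcl1 was mostly Mcl1. The anti-apoptotic Bcl2a1 genes, which are not among the members, are in neither sum. Bcl2a1a, Bcl2a1b and Bcl2a1d averaged 2794, 5424 and 5434 normalized counts in Ly6Clo and 90.4, 233 and 299 in Ly6Chi MoMac. The balance with them counted was not computed. Among the pro-apoptotic members, Pmaip1 had the highest mean (2736 in Ly6Chi and 8641 in Ly6Clo MoMac).

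Other genes of the pathway were described by list. Of 16 further BCL2 family genes, 11 were tested and 4 were higher in Ly6Clo MoMac, all of them Bcl2a1 genes, which encode the anti-apoptotic protein A1. The list's median log2 difference, Ly6Chi minus Ly6Clo, was -1.37, also with a gene at 0 in 1 subset set to its bound. Bcl2a1d averaged 299 ± 176 normalized counts in Ly6Chi and 5434 ± 2359 in Ly6Clo MoMac (SD, n = 10), a log2 difference of -4.45 (SE 0.35). Bcl2a1b averaged 233 ± 169 against 5424 ± 1262, and Bcl2a1a averaged 90.4 ± 72.1 against 2794 ± 1247. Bcl2a1c was at 0 in every Ly6Chi library and averaged 13.6 in Ly6Clo libraries, at least 5.14-fold higher than the mean limit that 3 reads per library allow. All 4 had adjusted p-values of at most 0.000764 by limma. These genes are near-identical copies, so that the share of each is uncertain, and neutrophil and NK cell markers moved with them, which was not tested as a source.

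Of 9 tested genes of the death receptor arm, 1 passed, Fasl, which encodes the ligand of the death receptor FAS and is known from cytotoxic lymphocytes. It was at 0 in every Ly6Chi library and averaged 1115 normalized counts in Ly6Clo libraries (0 to 3026), at least 423-fold higher. The median difference of this list was 0.67 on the log2 scale, and 0.36 without mouse 13. Fas, the receptor itself, then also passed with higher values in Ly6Chi MoMac (0.66, adjusted p = 0.0288 by limma), as did 388 of all 17248 genes. None of 14 apoptosome and caspase genes, 6 tested caspase inhibitors or 10 genes of the outer membrane and of MCL1 turnover passed between the subsets, with medians of 0.43, 0.04 and -0.29. Without mouse 13 these medians were 0.05, 0.31 and -0.38. With detected genes as a covariate, the receptor genes Fas (0.98) and Tnfrsf1a (1.58), the caspase Casp6 (1.52) and the inhibitor gene Birc5 (2.68) passed with higher values in Ly6Chi MoMac. Under this setting 1688 of all 17248 genes passed, 897 of them with higher values in Ly6Chi MoMac.

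For the 5 members detected in every library, the genes with the most similar pattern were taken by Spearman's rank correlation over the 20 libraries, among 3600 genes with values above 0 throughout. The points share subset, treatment and library quality, so that the values are a description. Bad was most similar to Slc25a4 (0.89), Ly6c2 (0.89) and Lgals3 (0.88), and Pmaip1 to Cnbp (0.89), Myl12b (0.88) and Cd244 (0.87), a receptor of NK cells. Bid came closest to Oaz1 // Oaz1-ps (0.79) and Psmc1 (0.76). The highest values were 0.76 for Mcl1 (Fkbp3) and 0.69 for Bax (Ubxn1).

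With Ac-6-FP, no member passed the test in Ly6Chi or in Ly6Clo MoMac (limma, 5 against 5 mice, adjusted p under 0.05), where 0.0754% and 0.0522% of all genes passed. At an unadjusted p under 0.05 there was 1 member in Ly6Chi MoMac (Bcl2l1; 8.73% of all genes) and there were 3 in Ly6Clo MoMac (Bcl2l1, Bak1 and Mcl1; 9.31% of all genes). By edgeR on recovered reads, 0 members and 0 genes passed in either subset, and at an unadjusted p under 0.05 the members were 0 and 1 (Mcl1), where 8.93% and 9.36% of all genes met this criterion. The median log2 change over the 10 members was 1.31 in Ly6Chi and 0.79 in Ly6Clo MoMac, against 0.35 and 0.91 over all genes tested. Without the library of mouse 13, the Ly6Clo medians were 0.24 over the members and 0.35 over all genes. The median over all genes was near 0 in both subsets after quantile normalization (-0.01 and 0.02). No marker of other cell types passed with Ac-6-FP (limma), but some lists had medians above that of all genes. In Ly6Chi MoMac, medians of hepatocyte, neutrophil and Kupffer cell markers were 0.81, 0.55 and 0.42, against 0.35. With detected genes as a covariate they were 0.30, 0.07 and -0.38, against 0. In Ly6Chi MoMac, 7 of 7 tested T and NK cell markers had a log2 change above 0 (median 2.10, and 1.83 with detected genes as a covariate), and the list summed to between 0 and 457 normalized counts with vehicle and between 262 and 1204 with Ac-6-FP, with Cd3e at 0 in every library. In Ly6Clo MoMac, 4 of 4 tested B cell markers were above 0 (median 2.83, and 1.82 without the library of mouse 13). Their sums were 0 to 778 with vehicle and 766 to 1131 with Ac-6-FP, with Pax5 at 0 in every library. Of 3 tested Kupffer cell markers, 2 were above 0 (median 3.84, and 3.39 without that library, sums 0 to 292 and 129 to 399). With detected genes as a covariate, 2 of the 4 B cell markers were above 0 (median 1.65), and the Kupffer cell median was 2.45. Medians above the 0.91 of all genes were also those of Ly6Clo (2.14), neutrophil (1.84), dendritic cell (1.61), endothelial (1.56) and macrophage markers (1.51). With the covariate these were 0.74, 1.12, -0.07, 1.00 and 0.20, against 0.04. The part of other cells in the members' changes was not tested.

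The number of genes detected moved with the treatment. It had a median of 9749 in vehicle and 13622 in Ac-6-FP libraries of Ly6Chi MoMac, and of 10379 and 14084 in those of Ly6Clo MoMac. Of 50 member values in each group, 12 were at 0 in Ly6Chi vehicle libraries, 1 in Ly6Chi Ac-6-FP, 10 in Ly6Clo vehicle and 1 in Ly6Clo Ac-6-FP libraries. Together 22 of 100 vehicle values and 2 of 100 Ac-6-FP values were at 0, all of them in Bcl2, Bcl2l1, Bak1, Bcl2l11 and Bbc3. The 11 libraries with no member at 0 had between 11096 and 15766 genes detected, and the 9 with a member at 0 had between 5343 and 15587, so that these ranges overlapped. With detected genes as a covariate, the log2 change in Ly6Chi MoMac was 3.56 for Bcl2l1, 3.26 for Bcl2, 0.78 for Bak1, 0.68 for Bcl2l11 and 1.64 for Bbc3, and in Ly6Clo MoMac it was 3.32, 0.22, 2.64, 1.01 and 2.03. None of these values passed (limma), and the median over the 10 members was then 0.40 in Ly6Chi and 0.19 in Ly6Clo MoMac, against 0 and 0.04 over all genes.

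**Figure D4:**
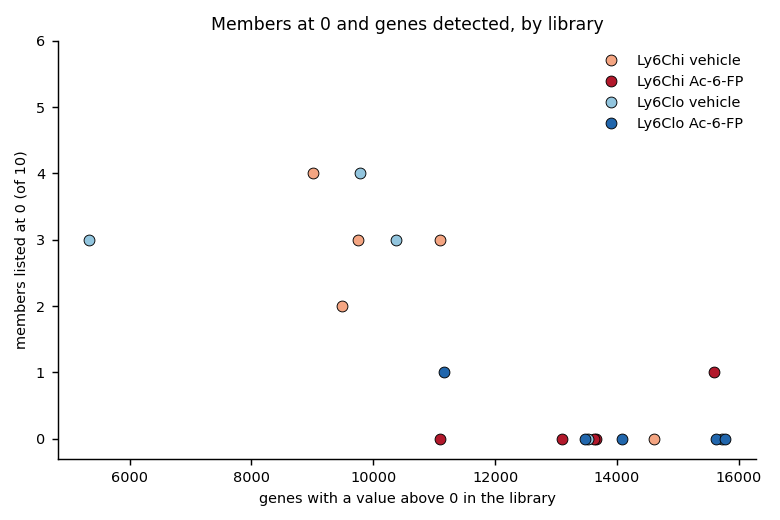
Each point is 1 library, with the number of genes above 0 on the x axis and the number of the 10 members at 0 on the y axis. Vehicle libraries with 2 to 4 members at 0 have between 5343 and 11097 genes detected, and the Ac-6-FP libraries have 0 or 1 member at 0.

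With all mice in the main fit, Bcl2l1 had the largest values of change with Ac-6-FP in both subsets. With 1 mouse left out, it lay between 3.87 and 5.43 in Ly6Chi MoMac, where Bcl2 reached 4.95. In Ly6Clo MoMac, Bcl2l1 then lay between 4.30 and 5.72, and Bak1 reached 5.98. In Ly6Chi MoMac Bcl2l1 was at 22.1, 0, 0, 75.4 and 0 normalized counts in vehicle mice 11 to 15 and at 70.6, 136, 72.7, 116 and 89.4 in Ac-6-FP mice 16 to 20. In Ly6Clo MoMac it was at 43.2, 0, 0, 0 and 49.1 with vehicle and at 141, 162, 110.0, 119 and 148 with Ac-6-FP. The Ly6Clo groups did not overlap, as in 1.29% of all genes in this direction (1.5% in either), whereas in Ly6Chi MoMac the vehicle library of mouse 14 lay within the Ac-6-FP range. The log2 changes of 4.41 (SE 1.39, adjusted p = 0.457) and 4.86 (SE 1.39, adjusted p = 0.521, both by limma) did not pass. Two-sided exact permutation tests, unadjusted and run for each of the 10 members, gave p = 0.0238 in Ly6Chi and p = 0.00794 in Ly6Clo MoMac, the latter the smallest that 5 against 5 mice allow. Without the Ly6Clo library of mouse 13, the exact p was 0.0159 and the log2 change 4.30. The size of these changes depends on the pseudocount and on the 3 vehicle libraries at 0 in each subset. The log2 change ranged from 2.01 to 6.40 in Ly6Chi and from 2.83 to 6.86 in Ly6Clo MoMac over the alternatives run.

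Mcl1 was detected throughout and was the member with lower values under Ac-6-FP in both subsets. In Ly6Chi MoMac, vehicle mice 11 to 15 had 3835, 4602, 4894, 3611 and 4488 normalized counts and Ac-6-FP mice 16 to 20 had 5707, 2921, 2399.7, 2645 and 2869. Of the 5 Ac-6-FP libraries, 4 were below every vehicle library and that of mouse 16 was above every one. In Ly6Clo MoMac, vehicle mice had 4658, 4257, 6992, 3913 and 3795 and Ac-6-FP mice had 2609, 2876, 4525, 2384 and 3308. Again 4 of the 5 were below every vehicle library, with mouse 18 as the exception. The share of all genes with such a pattern was not counted. The log2 changes were -0.44 in Ly6Chi (SE 0.23, adjusted p = 0.640) and -0.59 in Ly6Clo MoMac (SE 0.22, adjusted p = 0.528, both by limma), opposite in sign to the median of all genes, and under the alternatives run they stayed between -0.66 and -0.34 and between -0.73 and -0.35. The unadjusted exact permutation p was 0.0952 in Ly6Chi and 0.0397 in Ly6Clo MoMac (two-sided), and 0.0794 in the latter without the library of mouse 13.

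The effectors did not pass in either subset. Bax changed by a log2 value of 0.09 in Ly6Chi (SE 0.11, adjusted p = 0.773) and 0.40 in Ly6Clo MoMac (SE 0.28, adjusted p = 0.606), with overlapping groups, and the latter value was 0.19 without the library of mouse 13. Bak1 was at 139.8, 42.8, 0, 107 and 104 normalized counts with vehicle and at 272, 202, 51.9, 201 and 306 with Ac-6-FP in Ly6Chi MoMac. In Ly6Clo MoMac it was at 229, 0, 0, 0 and 98.3 with vehicle and at 122, 393, 110.0, 301 and 195 with Ac-6-FP. Both pairs of groups overlapped. Its log2 values of change were 2.27 (SE 1.34, adjusted p = 0.651) and 4.75 (SE 1.75, adjusted p = 0.528, both by limma), with an unadjusted exact permutation p of 0.0952 and 0.0476, the latter 0.0952 without the Ly6Clo library of mouse 13. Over the alternatives run, the change ranged from 0.78 to 2.94 in Ly6Chi and from 1.73 to 6.74 in Ly6Clo MoMac.

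Apart from Bad in Ly6Chi MoMac, the remaining members gave log2 values of change with wide errors or near 0, and none of them passed. Bcl2 was 3.58 in Ly6Chi (SE 1.83, adjusted p = 0.634), where 3 vehicle libraries were at 0, and 0.28 in Ly6Clo MoMac (SE 0.27, adjusted p = 0.619). The Ly6Chi value was 0.95 by edgeR on recovered reads and 0.62 by edgeR without mouse 15, and it ranged from 0.62 to 5.52 over the alternatives run. Bad was 0.57 (SE 0.25, adjusted p = 0.574) and 0.21 (SE 0.27, adjusted p = 0.709), Pmaip1 -0.23 (SE 0.40, adjusted p = 0.884) and 0.34 (SE 0.32, adjusted p = 0.613), the last value being 0.087 without the library of mouse 13. Bid was -0.28 (SE 0.47) and 1.48 (SE 1.44), the latter -0.04 without the library of mouse 13. Bcl2l11 was 2.04 (SE 1.64) and 3.31 (SE 1.84), and Bbc3 was 2.33 (SE 1.32) and 1.19 (SE 2.15), the Ly6Clo values being 2.13 and 2.72 without that library, with adjusted p-values for Bid, Bcl2l11 and Bbc3 of at least 0.564 by limma. Over the alternatives run, the Ly6Chi values ranged from 0.37 to 2.71 for Bcl2l11 and from 0.88 to 4.22 for Bbc3, and the Ly6Clo values from 0.92 to 4.64 and from -1.59 to 2.81. No gene of the 5 pathway lists passed in either subset.

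**Figure D5:**
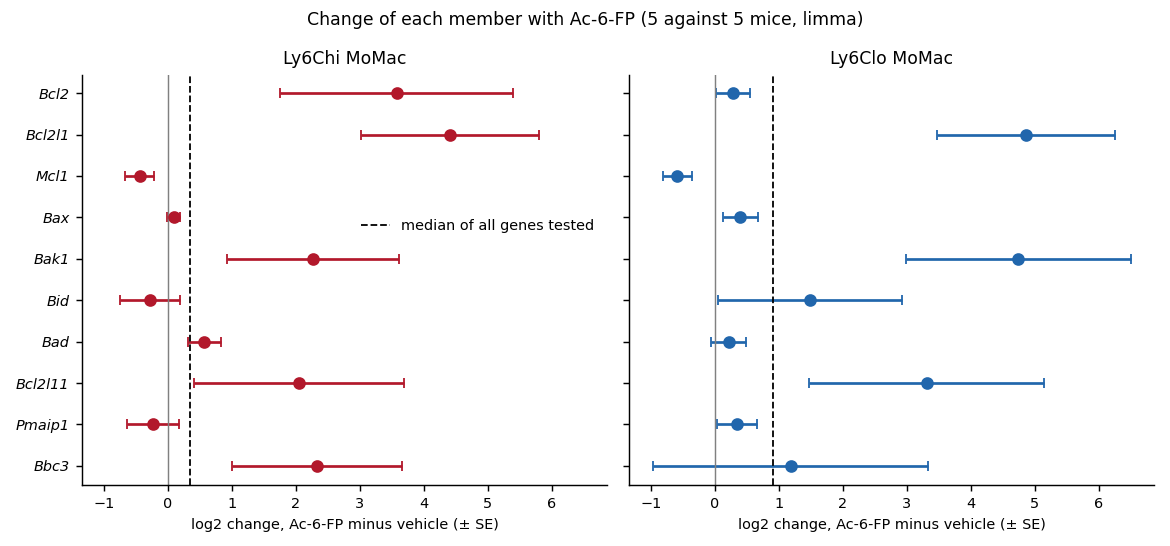
The log2 change of each member with Ac-6-FP is plotted as a point with its SE, in Ly6Chi MoMac on the left and Ly6Clo MoMac on the right. The dashed line is the median of all genes tested (0.35 and 0.91), and Mcl1, at -0.44 and -0.59, is the member to the left of 0 in both panels.

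Whether the change with Ac-6-FP differed between the subsets was tested on the same within-mouse differences, Ac-6-FP against vehicle mice. No member and no gene passed (0% of all genes; limma, adjusted p under 0.05). At an unadjusted p under 0.05 there were 0 members, and 840 of all genes, and by edgeR there were 0 members on either criterion. Bcl2 had the largest value, a change greater by 3.30 in Ly6Chi MoMac on the log2 scale (SE 1.70, adjusted p = 0.830), followed by Bak1 at -2.48 (SE 1.61, adjusted p = 0.830). Without the Ly6Clo library of mouse 13, the Bcl2 value was 4.70 (SE 1.28, adjusted p = 0.820 by limma), and Bcl2 was then the 1 member at an unadjusted p under 0.05, as were 5.14% of all genes. With detected genes as a covariate it was 4.00 (SE 1.21, unadjusted p = 0.00727, adjusted p = 0.724 by limma). For Mcl1 and Bad the values were 0.15 (SE 0.34) and 0.36 (SE 0.43). With ratios to the mean vehicle value over the 5 Ac-6-FP mice, a design in which the spread among vehicle mice does not enter, 4 members passed after adjustment (Bcl2, Bak1, Bid and Bax), as did 2851 of all genes.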

How the data were processed

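Normalized counts are signal values made by the authors before deposit, in 1 table of 20 libraries. Per the methods, libraries of a low-input kit were read at 75 bases, aligned with STAR 2.4.0 to mm10, counted on constitutive regions of FAST DB genes and divided by DESeq2 size factors. Columns were matched to mice and subsets by the sample titles. Values above 0 were whole multiples of 1 step per library (100%, tolerance 0.006), which gave back the reads. The step of the Ly6Chi library of mouse 15 lies close to 1, so that edgeR was also run without mouse 15, an alternative added after the data were seen.

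The log2(normalized count + 1) was fitted for 17248 genes with a mean of at least 10 in at least 1 group. In R 4.3.3 with limma 3.58.1 (variance trend over the mean level), groups were compared within each subset, and within-mouse differences were used between subsets, with Benjamini-Hochberg adjusted p under 0.05 over all genes. Both libraries of a number come from the same mouse per the labels. Residuals of such pairs correlated with a median of 0.0338 (0.00334 to 0.250), against -0.00319 between mice. Other settings tried were pseudocounts of 0.1 and 10, all 24373 genes above 0 or a filter at 100 (8784 genes), quantile normalization, array weights, detected genes as covariate, leaving out mice or the Ly6Clo library of mouse 13, other blocking, edgeR 4.0.16 on the reads, exact tests and the study's ratio design. Genes named by a fixed rule are the members, genes of the 5 pathway lists that passed and the genes most similar to a member. Marker genes, and pathway genes that passed under an alternative alone, were named after their values were seen. Members and lists were chosen with earlier results of these data known. Lyz2, Naip5 and Bcl2l15 were not matched by symbol, and 1 marker gene is not reported here. The fits were tested on simulated data. Tables were made with pandas 2.3.3, exact tests with scipy 1.17.1 in Python 3.11.15, and gene overlaps come from GENCODE M21. A stranded protocol or count is not given in the sources used here. The labels name the mouse of each library but no batch, and intervals and limits cover counting error only.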

Additional observations from a re-analysis of the deposited data

Results flagged for a closer look

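Of 40 sets of 5 libraries (10 members in 4 groups), 8 held a library far from the other 4. The measure was the gap to the nearest library divided by the whole range on the log2 scale. The rule flags about 1 in 20 such sets by chance if values are normally distributed. Several sets held values at or near 0, where this rate need not hold, so that 8 is not read as an excess. In Ly6Chi MoMac with Ac-6-FP, mouse 16 stood apart for Bcl2 (lowest, 3.75 normalized counts, ratio 0.766) and for Mcl1 (highest, 5707, ratio 0.773), and mouse 18 for Bak1 (lowest, 51.9, ratio 0.763) and for Bid (lowest, 454, ratio 0.743). In Ly6Chi vehicle libraries, mouse 13 was lowest for Bak1 (0, ratio 0.764), mouse 12 was lowest for Bcl2l11 (0, ratio 0.847), and mouse 11 was highest for Bbc3 (21.2, ratio 1, with the other 4 at 0). In Ly6Clo vehicle libraries, mouse 13 was lowest for Bid (4.17, ratio 0.826).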

How the results depend on the processing

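The count of members past the threshold between the subsets was 3 (Bcl2, Pmaip1 and Bad) under the alternatives run, including without the replicate block (3) and with each mouse left out (3 to 3), except for 4 with genes detected as covariate (Bid added) and 1 with edgeR without mouse 15. It was 0 for Ac-6-FP in either subset, with and without the mouse as a replicate block (0) and with each mouse left out (0 to 0), and for the change compared between subsets it was 0 except with ratios to the mean vehicle (4). Block and pairing changed no other call. The balance of anti-apoptotic to pro-apoptotic members moved between 0.046 and 0.30 with each mouse left out. Of 480 values of single members under settings other than leaving out each mouse, 453 kept direction and side of the threshold, 2 lost and 10 gained a call (5 in exact tests, whose p-values are unadjusted, 4 with ratios to the mean vehicle and 1 with the covariate), and 15 turned direction; of 400 with 1 mouse left out, 13 turned. No turned value had passed the test, and the cause was not tested. For Ac-6-FP in Ly6Clo these were Bid -0.73 and Pmaip1 -0.10 (genes detected as covariate), Bid -0.039 (without the Ly6Clo library of mouse 13), Bad -0.025 (quantile) and Bbc3 -1.28 (edgeR) and -1.59 (edgeR without mouse 15). Between subsets they were Bcl2l1 0.77 (edgeR without mouse 15), Mcl1 0.0052 (array weights) and 0.013, and Bax -0.017 (both without mouse 13). For the change compared between subsets they were Bcl2l1 0.089 (array weights) and 0.12 (edgeR), Bbc3 -1.08 (array weights) and -0.61, and Bcl2l11 0.080 (both without mouse 13). With each mouse left out, ranges that crossed 0 were, with Ac-6-FP in Ly6Chi, Bid -0.53 to 0.11 and Pmaip1 -0.51 to 0.077, in Ly6Clo Bid -0.039 to 2.02, between subsets Bcl2l1 -1.08 to 0.41, Mcl1 -0.17 to 0.081 and Bax -0.017 to 0.16, and for the compared change Bcl2l1 -1.85 to 1.13, Mcl1 -0.13 to 0.39, Bcl2l11 -3.57 to 0.41 and Bbc3 -0.61 to 2.61. Over all genes, the subsets differed in 900 by limma, 1688 with the covariate, 511 by edgeR and 392 by edgeR without mouse 15. The calls for Ac-6-FP fell from 13 and 9 to 0 and 0 with quantile normalization, and reached 133 and 103 without mouse 11. Low members at or near 0 limit what these depths can show.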
